A study of Mus musculus with 6 samples.

Results

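The nuclear factor I (NFI) family consists of 4 genes in the mouse, Nfia, Nfib, Nfic and Nfix, and all 4 were found by symbol among the 30386 genes measured in epidermis of mouse embryos. The family was chosen by a measured value, the lower CPM (reads scaled to a library's total) of Nfix in the knockout than in wild type. The difference between genotypes that chose it is therefore given here as a description, and the same holds for the other 3 members in that comparison. Where calls of a fit across all genes are counted for the members, they support nothing. The 3' ends of mRNAs were sequenced from epidermis separated from the back skin of embryos at E18.5, in 3 wild-type libraries (WT) and 3 libraries of the genotype p63alphaKO. That name stands for a loss of the alpha forms of p63, the transcription factor encoded by Trp63 that founds and maintains stratified epithelia; neither group carries a labelled treatment, and the sources used here do not give the making of the allele, the strain or the sex. The title of the study places the mice in work on AEC syndrome, a skin and craniofacial disorder caused by dominant p63 mutations. Nothing in the labels says in so many words that the libraries of a group came from separate embryos, so the spread between them may be partly technical.

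NFI proteins bind DNA as dimers of any pair of family members through a conserved amino-terminal domain, and their carboxy-terminal parts activate or repress transcription. The preferred site is a palindrome of TTGGC and its reverse complement, and a single TTGGC core is bound more weakly. In skin, Nfib and Nfix are known for keeping the chromatin of hair follicle stem cells open, Nfib also for restraining signals from those cells to melanocyte stem cells. Nfic is known for tooth root formation, Nfia for glial fate in the brain, and Nfix for the fetal program of skeletal muscle. Dermal fibroblasts and muscle express NFI genes as well as keratinocytes.

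Of the members, Nfix and Nfic had the greatest differences between the genotypes on the log2 scale, and the sequence at their start sites is shown for that reason. RefSeq promoter windows on GRCm38.p6, reaching from 250 bases before to 50 after an annotated start, were at hand for 3 of the 4 members (6 windows, none for Nfib). The Nfic window, chr10:81427124-81427423 on the minus strand, starts transcription at the same base as a GENCODE coding transcript, and the first Nfix window, chr8:84773361-84773660 on the minus strand, lies 14 bases from such a start. A further Nfix window, chr8:84772826-84773125, is shown because it holds a pair of these cores. Capitals mark TTGGC on either strand.
Nfic promoter: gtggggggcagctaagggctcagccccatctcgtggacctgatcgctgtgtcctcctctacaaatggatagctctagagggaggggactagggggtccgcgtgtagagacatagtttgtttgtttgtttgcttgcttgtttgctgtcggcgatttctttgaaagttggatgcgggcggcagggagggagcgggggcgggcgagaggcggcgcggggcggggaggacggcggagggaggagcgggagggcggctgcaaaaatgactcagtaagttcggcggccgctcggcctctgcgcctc
Nfix promoter: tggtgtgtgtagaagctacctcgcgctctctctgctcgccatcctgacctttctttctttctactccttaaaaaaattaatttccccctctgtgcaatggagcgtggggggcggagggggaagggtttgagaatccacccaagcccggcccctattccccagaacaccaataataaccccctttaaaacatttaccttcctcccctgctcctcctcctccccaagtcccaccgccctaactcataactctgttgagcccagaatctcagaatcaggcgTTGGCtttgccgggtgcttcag
Nfix further window: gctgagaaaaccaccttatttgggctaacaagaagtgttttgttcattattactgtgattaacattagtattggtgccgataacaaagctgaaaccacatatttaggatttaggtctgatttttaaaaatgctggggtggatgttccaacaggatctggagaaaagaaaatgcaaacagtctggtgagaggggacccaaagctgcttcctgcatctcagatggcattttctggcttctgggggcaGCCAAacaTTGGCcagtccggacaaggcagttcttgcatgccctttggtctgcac
TTGGC was present in 46.7% of 32851 windows of this kind, so its presence in 3 of 4 Nfix windows and absence from the Nfic and Nfia windows sets neither gene apart. The Nfia window is far from the annotated coding starts: its start lies 190791 bases from the nearest one, outside the span of the gene given below. In the further Nfix window the pair begins 5 bases before and 3 bases after the start. The full palindrome, TTGGC followed by 5 bases of any kind and its reverse complement, held by 0.0365% of all windows, was found in no member's window, and neither were CATG repeats 6 bases apart, a strict spelling of the paired core bound by the p53 family (0.712% of windows). The AP-1 site TGANTCA, present in 7.81% of windows, occurred once in the Nfic window and once in the most distal Nfix window, at chr8:84780033-84780332. Motifs were read on both strands, TTGGC also counts within the palindrome, and a missing match says only that these letters are not in this window. The Nfic window was 63% G or C with 24 CG dinucleotides, against medians of 52.7% and 7 over all windows, and the first Nfix window had 53% and 9.

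Trp63, the gene the genotype is named for, was at 63.9, 71.7 and 87.2 CPM in WT, against 143, 146 and 136 CPM in p63alphaKO. It rose, with a log2 fold change of 0.93 (SE 0.19, limma adjusted p = 0.0192), a call lost in 4 of 18 other settings (adjusted p up to 0.0968), among them without any 1 of the p63alphaKO replicates. As a count per gene sums the isoforms, these values are no check on the alpha forms. The libraries held 2564407 to 4474764 reads over the genes of the table, the most in WT replicate 2.

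All 4 members had lower mean levels in p63alphaKO than in WT. The levels are CPM as deposited; reads come from transcript 3' ends, so CPM was not divided by gene length. Fold changes compare p63alphaKO with WT as differences of log2(CPM + 1), with the standard error (SE) of a limma fit across the 7464 genes whose mean reached 10 CPM. All 4 members passed that minimum, with at least 42.35 CPM in every library. In that fit 2 of the 4, Nfix and Nfic, were among the genes called lower at an adjusted p under 0.05 (Benjamini-Hochberg), beside 1.18% of all tested genes called lower. The groups did not overlap for 3 of the 4, beside 13.4% of all tested genes that were lower without overlap and 7.6% that were higher without overlap. As the comparison chose the family, nothing is read from these counts.

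Nfix, on chromosome 8 (84699876 to 84800344, minus strand, mm10), was at 177, 124 and 215 CPM in WT replicates 1, 2 and 3, against 80.7, 75.4 and 70.7 CPM in p63alphaKO replicates 1, 2 and 3. Each p63alphaKO library lay below each WT library, and the WT libraries were spread more widely than the p63alphaKO ones. The means were 172 ± 46.0 CPM and 75.6 ± 5.03 CPM (SD, n = 3 each), a log2 fold change of -1.14 (SE 0.21), or 2.21-fold lower. With each read taken as an independent count, the spread within WT was larger than counting error. The exact Poisson 95% interval was 114 to 134 CPM in WT replicate 2 and 199.5 to 232 CPM in WT replicate 3. In p63alphaKO the intervals of replicates 1 and 3, at 71.7 to 90.7 and 62.0 to 80.3 CPM, overlapped. Only counting error enters these intervals. The use of molecular identifiers is not stated in the labels, so reads may be copies of the same molecule and the intervals too narrow.

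Nfic, on chromosome 10 (81396186 to 81455635, minus strand), was at 98.2, 64.3 and 142 CPM in WT, against 42.35, 42.5 and 42.95 CPM in p63alphaKO. The p63alphaKO libraries were nearly alike, and WT replicate 2 lay closest to them, as it did for Nfix. The p63alphaKO values rest on 150, 146 and 144 reads, and their Poisson 95% intervals reached from 35.8 to 50.6 CPM. They were thus closer together than counting error alone would make likely, and no uniformity is read from them. The log2 fold change was -1.16 (SE 0.25), or 2.23-fold lower, from 101 ± 38.8 CPM to 42.6 ± 0.309 CPM. Its size leaned on WT: it was -0.88 without WT replicate 3 and -1.45 without WT replicate 2.

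Nfia, on chromosome 4 (97772734 to 98118874, plus strand), was at 159, 148 and 187 CPM in WT, against 107, 108 and 65.9 CPM in p63alphaKO. The groups did not overlap, and p63alphaKO replicate 3 was lower than the other libraries of its group. The log2 fold change was -0.84 (SE 0.21), or 1.79-fold lower, and it was -0.60 without p63alphaKO replicate 3.

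Nfib, on the same chromosome (82290173 to 82705750, minus strand), was at 433, 453 and 546 CPM in WT, against 436, 397 and 280.1 CPM in p63alphaKO. Here the groups overlapped: p63alphaKO replicate 1 was above WT replicate 1. The log2 fold change was -0.38 (SE 0.19), from 477 ± 60.1 CPM to 371 ± 81.4 CPM, and it came to -0.19 without p63alphaKO replicate 3.

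**Figure D1:**
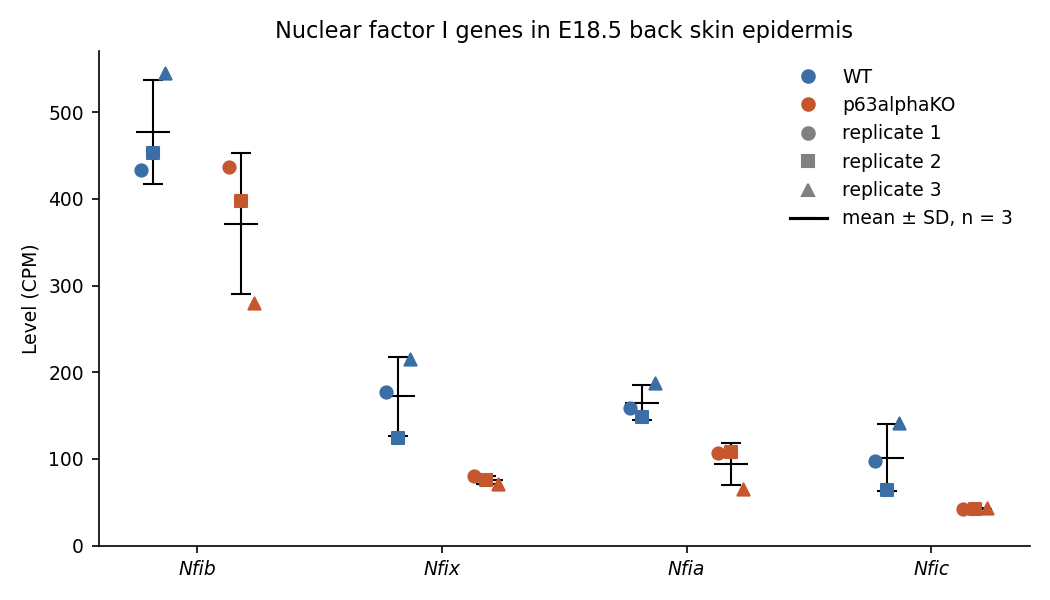
Level of each nuclear factor I gene (CPM, vertical axis) in each library, with WT in blue and p63alphaKO in orange; symbols give the replicate number, and bars the mean ± SD of 3 libraries. The 3 p63alphaKO libraries sit between 70.7 and 80.7 CPM for Nfix and between 42.35 and 42.95 CPM for Nfic, below every WT library, while Nfib overlaps between the groups.

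By level, Nfib was the first member in every library, and Nfic the last. Nfix and Nfia could not be ordered in WT: Nfix was above Nfia in 2 of 3 libraries, and their means of 172 and 165 CPM differed by less than either SD. In p63alphaKO, Nfia was at 93.7 ± 24.1 CPM and Nfix at 75.6 ± 5.03 CPM, with Nfia above in 2 of 3 libraries. Ranked by WT mean among the 7464 tested genes, 96.7% of genes were below Nfib, 88.3% below Nfix, 87.8% below Nfia and 78.0% below Nfic.

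Summed over the family, the level was 867, 789 and 1089.9 CPM in WT, against 667, 623 and 459.6 CPM in p63alphaKO. The groups did not overlap, at 916 ± 156 CPM and 583 ± 109 CPM, with a log2 fold change of -0.65. Nfib made up most of the sum in p63alphaKO and in WT replicates 2 and 3, and a shade less than all other members together in WT replicate 1. Its share was 49.9%, 57.4% and 50.1% in WT and 65.5%, 63.7% and 60.9% in p63alphaKO, so that every p63alphaKO library had the greater share. The share of Nfix was 18.6% ± 2.58 in WT and 13.2% ± 1.89 in p63alphaKO, again without overlap. The shares of Nfia (18.1% ± 0.835 and 15.9% ± 1.52) and Nfic (10.8% ± 2.46 and 7.51% ± 1.61) overlapped between the groups.

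**Figure D2:**
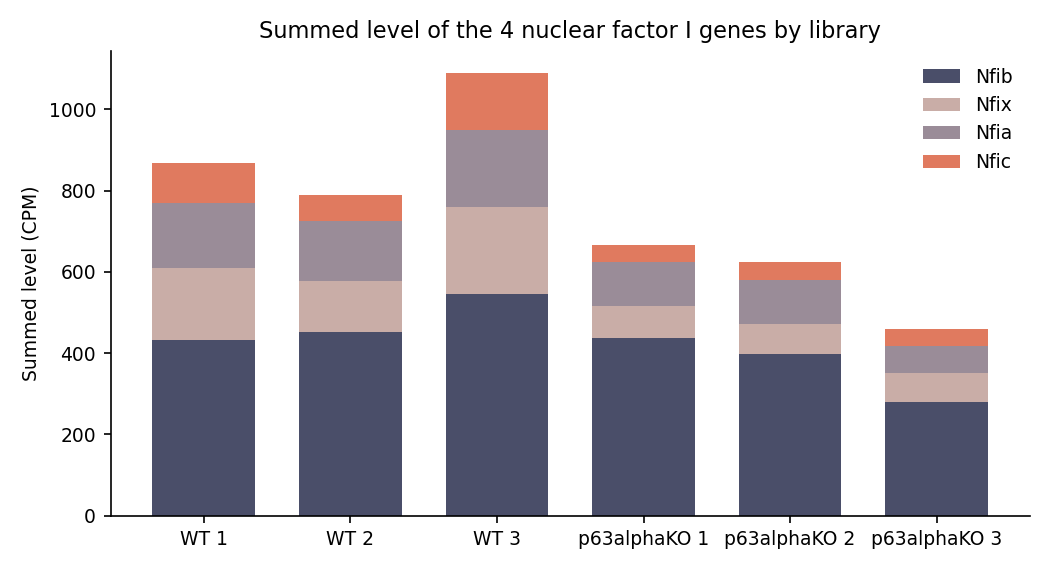
Summed level of the 4 genes (CPM, vertical axis) in each library, stacked by gene. The WT sums run from 789 to 1089.9 CPM and the p63alphaKO sums from 459.6 to 667 CPM, and Nfib is the deepest layer in all 6 libraries.

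The counts are per gene and cannot tell NFI isoforms apart. GENCODE lists 7 coding transcripts each for Nfia and Nfib, 6 for Nfic and 5 for Nfix, and their 3' ends fall into 3 groups over 50 bases apart for Nfia, Nfib and Nfix and into 4 for Nfic, so that reads from different ends are summed in each value. The labels do not say whether counting used the strand, and exons of 3 members overlap a gene on the opposite strand. At Nfix these are G430095P16Rik (137 shared bases) and Lyl1 (4 bases), at Nfic the antisense gene Gm16104 (72 bases) and at Nfia E130114P18Rik (4 bases). The highest value of any of them in any library was 2.01 CPM, for Lyl1, and the rest reached at most 1.56 CPM. These values do not show whether reads in the shared bases were counted for the member, for its neighbour or for neither.

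In 13 other settings of scaling, pseudocount, model and library choice that bear on the values, the fold change of each member was negative. It lay between -1.36 and -0.96 for Nfix, between -1.45 and -0.88 for Nfic, between -0.96 and -0.60 for Nfia and between -0.51 and -0.19 for Nfib. On recovered reads edgeR called 1 of the 4 lower, beside 0.817% of tested genes, and DESeq2 called 3, beside 2.21%. These counts come from the comparison that chose the family, and nothing is read from them either.

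**Figure D3:**
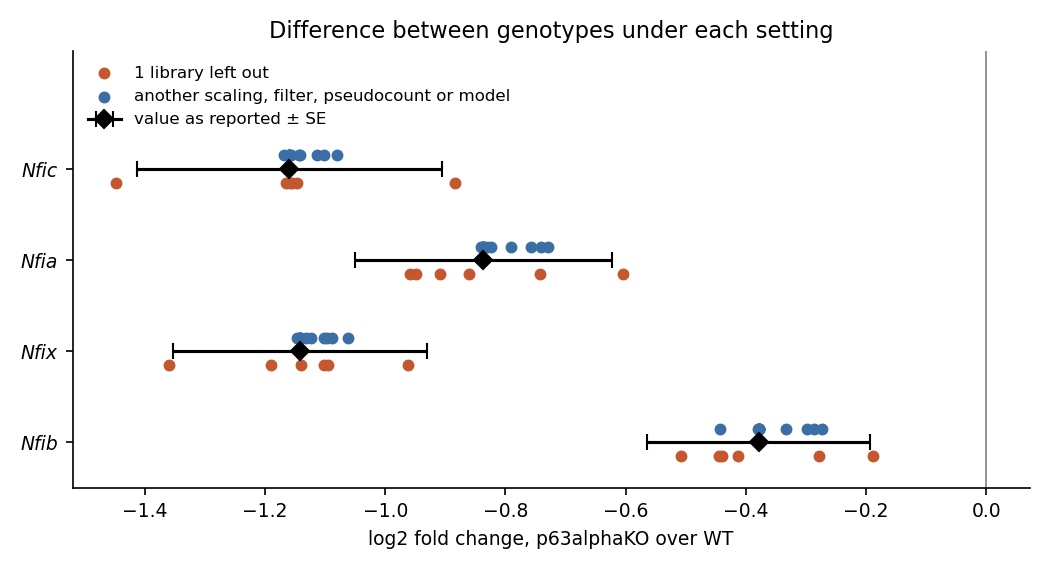
Log2 fold change of each member, p63alphaKO over WT (horizontal axis): the reported value with its SE as a black diamond, values with 1 library left out in orange, and values under other scalings, filters, pseudocounts or models in blue. All points lie left of 0, and those of Nfib, from -0.51 to -0.19, lie nearest to it.

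Markers of cells outside the epidermis were lower in p63alphaKO in the same libraries. The summed level of 16 dermal fibroblast markers was 5664, 2488 and 3957 CPM in WT replicates 1, 2 and 3 and 499.97, 851 and 432 CPM in p63alphaKO replicates 1, 2 and 3. Of its 12 tested genes 11 fell and 0 rose (8 fell without WT replicate 1, 8 of 13 without p63alphaKO replicate 1, 6 of 13 without p63alphaKO replicate 3, and 5 of 12 in limma without a trend), with a median log2 fold change of -2.45, against -0.085 for all tested genes. Over all tested genes, 1.18% were called lower and 0.469% higher. Col1a1 and Col3a1 encode chains of the fibrillar collagens of dermis. Col1a1 fell by 4.11 and Col3a1 fell by 3.51 on the log2 scale (limma adjusted p = 0.000219 and 0.000476). WT replicate 2 had the lowest dermal sum of its group, and also the lowest Nfix, Nfic and Nfia. WT replicate 1 had the highest dermal sum, whereas all 4 NFI genes were highest in WT replicate 3. In p63alphaKO the dermal sum was highest in replicate 2, where Nfia was highest but Nfib, Nfix and Nfic were not. The part of dermal RNA in the NFI differences was not tested, and in bulk samples fewer cells of a type and less RNA per cell cannot be told apart.

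The same direction was seen for other cells of the deeper skin. Skeletal muscle markers (17 listed) summed to 517, 3203 and 519 CPM in WT replicates 1, 2 and 3, and to between 72.0 and 128 CPM in p63alphaKO. By limma, 7 of 11 tested genes fell and 0 rose, beside 1.18% and 0.469% of all tested genes. Of the 11, 2 fell without p63alphaKO replicate 1, 3 without p63alphaKO replicate 3, 4 with TMM factors and 1 in limma without a trend. Acta1, the actin of muscle fibres, fell by 3.13 on the log2 scale (limma adjusted p = 0.00124), and its value was -2.49 without WT replicate 2. Erythroid markers (8 listed) summed to between 1903 and 3441 CPM in WT and between 559 and 1769 CPM in p63alphaKO. Of 4 tested erythroid genes 3 fell, the globins Hbb-bt, Hbb-bs and Hba-a2, beside 1.18% of all tested genes. These calls were lost in 7, 9 and 13 of 18 other settings, edgeR and DESeq2 among them (adjusted p up to 0.372). Endothelial markers (9 listed, 0 tested) summed to between 23.9 and 65.5 CPM in WT and between 4.48 and 8.44 CPM in p63alphaKO, adipocyte markers (6 listed, 0 tested) to between 21.9 and 55.7 CPM and between 4.17 and 13.4 CPM. Immune markers (10 listed, 0 tested) overlapped, at 19.7 to 38.4 CPM and 9.53 to 23.9 CPM, and the T cell genes Cd3e and Trdc were at 0 in all 6 libraries. Markers of Schwann cells and neurons (10 listed) overlapped as well, at 47.9 to 70.1 CPM and 52.8 to 76.3 CPM, while melanocyte markers (8 listed) summed to between 203 and 343 CPM in WT and between 346 and 490 CPM in p63alphaKO, with 0 of 4 tested genes called. Of these 4 melanocyte genes, 1 rose by DESeq2 and 1 without WT replicate 3.

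Taken as lists, the basal and suprabasal keratinocyte markers did not follow the NFI genes. The 10 basal markers summed to between 2910 and 4888 CPM in WT and between 4540 and 5587 CPM in p63alphaKO, and their median log2 fold change was 0.38, with 9 of 10 values positive and 0 called either way by limma. By DESeq2 1 of the basal markers rose. Of the 10, 5 were higher without overlap, beside 7.6% of all tested genes, and 4 had an unadjusted limma p under 0.05. Krt14, a keratin of the basal layer, had a value of 0.39 (SE 0.22, limma adjusted p = 0.417). Krt15, a keratin of basal and follicle stem cells, is not on the basal list but on a follicle list given below. It went the other way, with a log2 fold change of -1.80 (limma adjusted p = 0.00164). The 10 suprabasal markers took the bulk of the keratinocyte signal. They summed to between 113524 and 127158 CPM in WT and between 115918 and 122155 CPM in p63alphaKO. Of these markers 1, Krt77, rose, beside 0.469% of all tested genes.

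**Figure D4:**
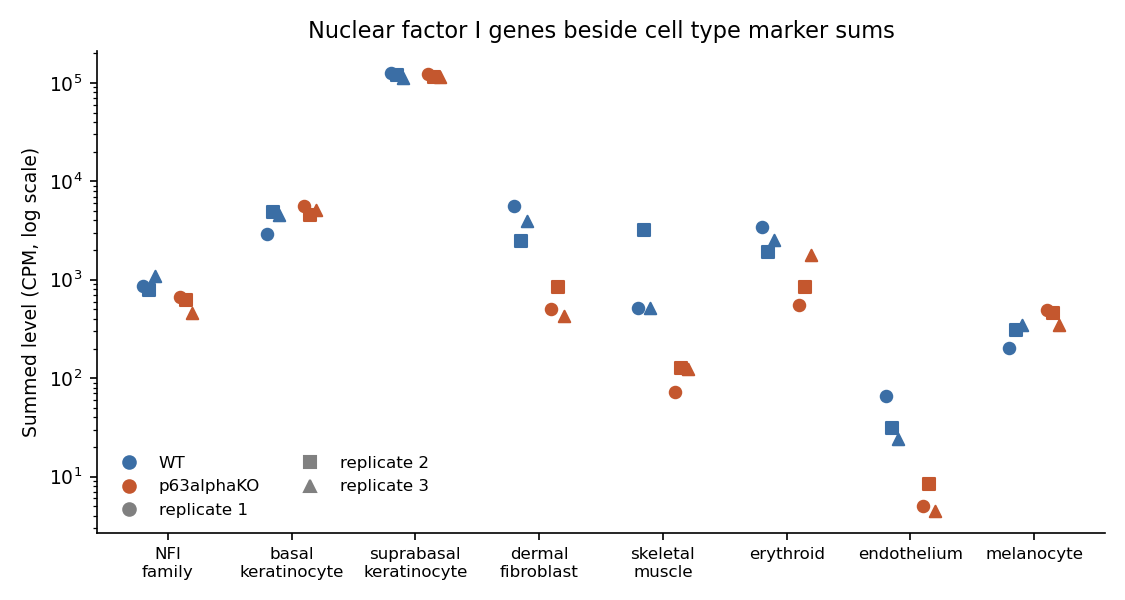
Summed level of the nuclear factor I genes and of cell type marker lists (CPM, log scale on the vertical axis) in each library, with WT in blue, p63alphaKO in orange and symbols for the replicate number. The dermal sums run from 2488 to 5664 CPM in WT and from 432 to 851 CPM in p63alphaKO, while the suprabasal sums differ little between the groups.

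Among 30 transcription factors of the epidermal lineage, 29 were tested, 14 with positive and 15 with negative fold changes and a median of -0.024. Of these 2 rose and 0 fell, beside 0.469% of all tested genes that rose; 0 rose without any 1 of the p63alphaKO replicates or in limma without a trend. These were Trp63 itself and Prdm1, a repressor that acts in terminal differentiation, from 318 ± 49.8 to 533 ± 79.5 CPM (log2 fold change 0.74, limma adjusted p = 0.0456, lost in 10 of 18 other settings with an adjusted p up to 0.193).

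Hair follicle transcription factors, the setting in which Nfib and Nfix are best known in skin, showed 0 calls by limma among 14 tested of 20 listed, 3 of them at an unadjusted p under 0.05. By edgeR there were 0 calls, and by DESeq2 1 gene rose and 1 fell. The median log2 fold change was -0.091, with 6 positive and 8 negative. Sox9, which founds and maintains the follicle stem cells, was at 132, 145 and 172 CPM in WT, against 225, 238 and 231 CPM in p63alphaKO. All p63alphaKO values were above all WT values, and the log2 fold change of 0.63 (SE 0.17) did not pass (limma adjusted p = 0.0696), though it did in 2 of 18 other settings, DESeq2 and without WT replicate 3 (range of adjusted p 0.00395 to 0.238). Foxn1, a regulator of hair shaft and epidermal differentiation, went the other way, from 16.8, 22.6 and 26.5 CPM in WT to 7.06, 9.61 and 8.35 CPM in p63alphaKO, again without overlap. Its log2 fold change of -1.28 (SE 0.35) did not pass either (limma adjusted p = 0.0718, and 0.0207 to 0.257 in 17 other settings, where DESeq2 alone called it). Of the 14 tested genes, 3 were lower and 3 higher without overlap, beside 13.4% and 7.6% of all tested genes, so little is read from the lack of overlap. Tcf7l2, a Wnt effector of the follicle, averaged 45.6 ± 1.05 CPM in WT against 45.0 ± 7.76 CPM in p63alphaKO.

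Other follicle genes moved in both directions. Of 13 tested of 21 listed hair follicle keratinocyte genes, 3 fell and 1 rose, and the median was 0.10. Over all tested genes, 1.18% were called lower and 0.469% higher. Krt71 and Krt25 are keratins of the inner root sheath. Krt71 fell by 2.15 and Krt25 fell by 1.66 on the log2 scale (limma adjusted p = 0.00731 and 0.0140). Krt71 was at 42.1, 25.2 and 23.6 CPM in WT, against 7.06, 5.24 and 5.37 CPM in p63alphaKO. Tchh, another inner root sheath gene on this list, did not fall, at 164 ± 59.9 CPM in WT against 158 ± 14.9 CPM in p63alphaKO. Krt15, a keratin of basal and follicle stem cells, fell by 1.80, and Plet1, a surface protein of the upper follicle, rose by 1.65 (adjusted p = 0.00164 and 0.0316). Krt25 lost its call in 3 of 18 other settings, among them without p63alphaKO replicate 1 or 3, Krt15 in 1 (limma without a trend) and Plet1 in 9 (adjusted p up to 0.205). Without WT replicate 3 the value of Plet1 was 1.05. The antisense gene at this locus, Plet1os, is listed at 0 in all 6 libraries, and without strand its reads cannot be told apart from those of Plet1. The median of the list turned to -0.11 without WT replicate 1.

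Genes reported under NFI control in other tissues did not share a direction. Of 21 listed, 10 were tested, 5 with positive and 5 with negative fold changes and a median of -0.022. Of the 10, 2 fell and 0 rose, beside 1.18% and 0.469% of all tested genes. In other settings 1 to 3 fell and 0 to 2 rose, with 2 risers without WT replicate 3 and by DESeq2. Col1a2, a fibrillar collagen chain, fell from 1158 ± 518 to 96.0 ± 66.4 CPM (log2 fold change -3.70, limma adjusted p = 0.000219), and it is also on the dermal list described above. Sparcl1, a matrix protein gene of glia and vessels, fell from 41.1 ± 28.8 to 8.62 ± 1.62 CPM (-1.90, limma adjusted p = 0.0391), a call lost in 12 of 18 other settings (adjusted p up to 0.181), among them without WT replicate 1, where the value was -1.38. Edn2, the endothelin gene that Nfib represses in follicle stem cells, was chosen for mention after its values were seen. The WT libraries had 10.1, 10.9 and 1.26 CPM and the p63alphaKO libraries 46.9, 26.5 and 23.0 CPM. In WT replicate 3 the value rests on few reads, as 3 reads are 0.944 CPM there. The WT mean of 7.44 CPM lay under the minimum of 10 CPM, which Edn2 passed only through its p63alphaKO mean of 32.1 CPM. The log2 fold change of 2.24 (SE 0.55) did not pass (limma adjusted p = 0.0550), but passed in 8 of 17 other settings (adjusted p 0.00182 to 0.218). Its size leaned on WT replicate 3, without which it was 1.45. Several of the best known targets in brain and tooth, Gfap, Gabra6 and Dspp, had a mean under 0.05 CPM or were at 0, and were not tested.

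Reported partners and cofactors of NFI proteins showed 0 calls by limma among 10 tested of 12 listed, 1 of them at an unadjusted p under 0.05, and a median of 0.063. By edgeR 0 were called, and 1 rose by DESeq2 and without WT replicate 3. The AP-1 subunits Jun and Junb had the highest levels, with log2 fold changes of 0.23 and 0.22 (SE 0.18 and 0.23, limma adjusted p = 0.593 and 0.708). The sign of Junb turned without WT replicate 3, to -0.12. The acetyltransferase genes Ep300 and Crebbp and the corepressor gene Ski were at -0.15, -0.065 and -0.16.

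**Figure D5:**
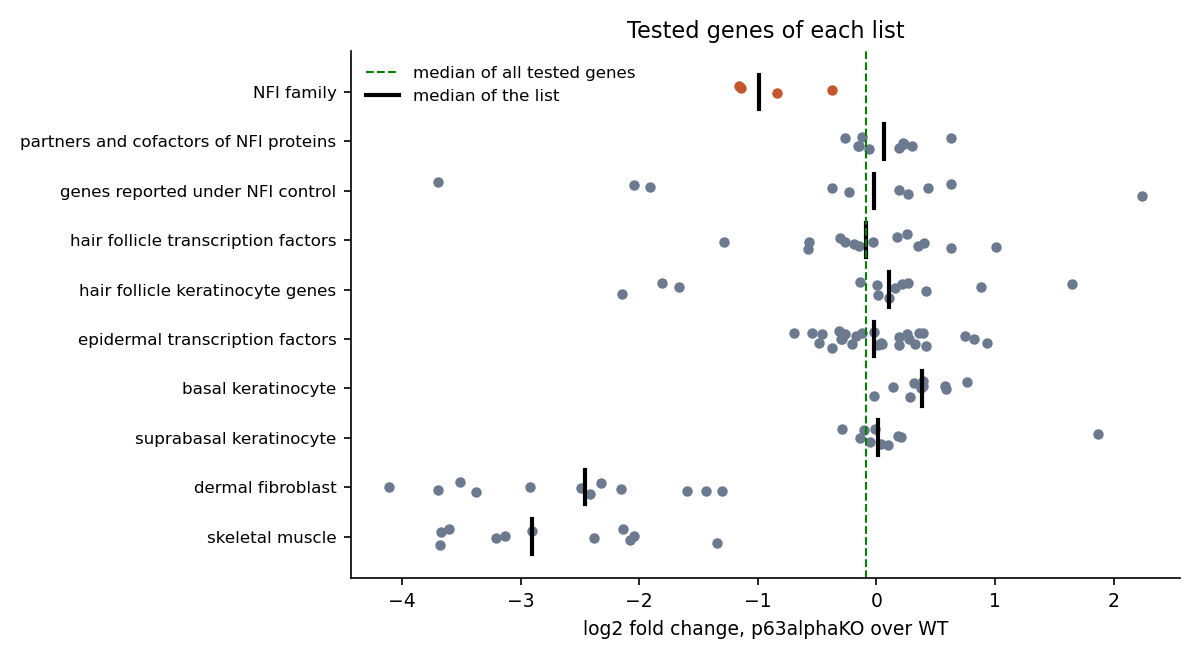
Log2 fold change, p63alphaKO over WT (horizontal axis), of the tested genes of each list (points, spread vertically at random), with the median of the list as a black bar and that of all tested genes, -0.085, as a green dashed line. The NFI genes lie between -1.16 and -0.38, between the dermal and muscle lists on the left and the follicle and epidermal lists on the right.

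For each member, the 3 tested genes whose levels followed it most closely are named next. Likeness was measured by Pearson's r of log2(CPM + 1), over the same 6 libraries in 2 groups, so that it holds the group difference as well as the spread within groups, and it is given as a description. For Nfix these were Oplah, an enzyme of glutathione turnover (r = 0.9997), the sorting nexin gene Snx13 (0.995) and Fam219b (0.992). Oplah averaged 16.5 ± 6.70 CPM in WT against 4.06 ± 0.470 CPM in p63alphaKO. For Nfic the closest were Snx13 (0.996), Ankrd35 (0.992) and the RhoA exchange factor gene Plekhg5 (0.992), so that Snx13 was shared by Nfix and Nfic. Snx13 had a log2 fold change of -0.95 (SE 0.31, limma adjusted p = 0.146). For Nfia they were the aminopeptidase gene Rnpep (0.997), the mRNA export factor gene Gle1 (0.993) and Smc5 (0.993), which encodes a chromosome maintenance protein. For Nfib they were the autophagy gene Atg5 (0.999), Ccdc137 (0.998) and the splicing factor gene Srsf2 (0.995). Between 48 and 102 genes had r over 0.95 with any 1 member, so these names single out little.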

How the data were processed

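Epidermis RNA of 6 libraries, 3 WT and 3 p63alphaKO at E18.5, was profiled by 3' mRNA sequencing. RNA extraction is described with more than 1 kit in the labels, so the kit is not settled. STAR, HTSeq and the build mm10 are named in the submitters' processing notes. The authors deposited CPM, per the values relative to a library's total, with 2 decimals. Within 0.0055 CPM, 100% of values equalled a whole number of reads, which gave 2564407 to 4474764 reads per library in the table. At that depth 10 CPM are 25.7 to 44.8 reads.

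Genes whose mean reached 10 CPM were fitted on the log2(CPM + 1) scale by limma-trend, genotype being the sole term (two-sided; limma 3.58.1 under R 4.3.3), with Benjamini-Hochberg adjustment. With 3 libraries against 3 an exact permutation test cannot go below p = 0.1, and none was run. edgeR 4.0.16 and DESeq2 1.42.0 were run on the recovered reads as alternatives, with 82 and 317 genes called. The scripts were tested on simulated data. Positions are from GENCODE vM21 (99.6% of gene IDs matched).

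Members and gene lists were chosen with earlier results of these data known. From each list the text names called members (up to 4, or 3 for markers, by smallest p), or else the members with the highest level, and for each NFI gene the 3 tested genes with the highest r. Other names in a list serve as examples and were chosen after their values were seen.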

Additional observations from a re-analysis of the deposited data

How the results depend on the processing

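The count of called genes was 123 (35 higher, 88 lower). It was 41 in limma without a trend, 317 with DESeq2 (152 higher, 165 lower), and between 38 and 179 with 1 library left out, the low values being 47, 68 and 38 without p63alphaKO replicates 1, 2 and 3. With quantile normalization 42 of 108 called genes were higher. The count of called NFI genes, 2, from which nothing is read, was 1 with TMM factors, with quantile normalization, with no filter and with edgeR, 0 in limma without a trend, 3 with DESeq2, and between 0 and 2 with 1 library left out: 1 without WT replicate 1, WT replicate 3 or p63alphaKO replicate 2, and 0 without p63alphaKO replicate 1 or 3. The cause was not tested. The medians of the follicle, epidermal, NFI-control, partner and suprabasal lists, all near 0, changed sign in at least 1 setting. The summed NFI fold change stayed negative in 13 settings that bear on it, between -0.76 and -0.49. With the replicate number as a replicate block, 127 genes and 2 NFI genes were called. The numbers gave no sign of pairing the libraries. Same-numbered libraries deviated from their group means with r of -0.023, 0.066 and -0.11, and not every library correlated best with its own number. With 3 libraries per group these values cannot settle whether the libraries were paired.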

Other observations

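Some follicle and mesenchyme genes on the lists lay under the minimum mean for testing, and they are given as group means only, chosen after their values were seen. Krt27, an inner root sheath keratin, averaged 16 CPM in WT against 2.72 CPM in p63alphaKO. Krt73, another such keratin, differed little, at 3.62 CPM in WT against 3.18 CPM in p63alphaKO. Cd34, a gene of follicle stem cells and also of vessels and dermal cells, averaged 18.3 CPM in WT against 0.867 CPM in p63alphaKO. Msx1 was at 8.81 and 0.383 CPM. The hair signal gene Shh averaged 3.74 CPM in WT against 7.10 CPM in p63alphaKO. None of these differences was tested.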
